A study of Mus musculus with 4 samples.

Results

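The ionotropic and metabotropic glutamate receptor genes and the GABA-A receptor genes were examined as targets of H3K27me2 in mouse zygotes. Members were all protein-coding genes whose symbols begin with Gria, Grid, Grik, Grin, Grm followed by a digit, or Gabra, Gabrb, Gabrg, Gabrd, Gabre or Gabrr. This gave 43 of the 21631 protein-coding genes on chromosomes 1 to 19 and X. Of the 56036 peaks in the 4 deposited peak lists, 155 carried the identifier of one of these genes.

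H3K27me2 was profiled by ULI-NChIP-seq, a low-input method in which native chromatin is cut with MNase and the nucleosomes bound by an antibody are sequenced. All zygotes came from C57BL/6J eggs fertilized in vitro with PWK/PhJ sperm and were taken at stage PN5, when the maternal and the paternal pronucleus are both formed, with the polar bodies removed. The mothers of Ezh2m+/p+ zygotes were Ezh2 fl/fl, and those of Ezh2m-/p+ zygotes were Ezh2 fl/fl with Gdf9-Cre, an oocyte-expressed Cre that deletes the floxed exon of Ezh2, so that the floxed allele was present in the mothers of both groups and the paternal allele was wild-type in both. Each genotype had 1 H3K27me2 library and 1 input library, both from pooled zygotes. There is therefore no replicate check, no test between genotypes was made, and the intervals given cover counting error only.

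The authors split the reads of each library into maternal (C57BL/6) and paternal (PWK) reads by strain variants and called peaks in each set against the input. The lists held 5744 peaks for the Ezh2m+/p+ maternal genome and 17863 for the Ezh2m+/p+ paternal genome. For Ezh2m-/p+ they held 9606 maternal and 22823 paternal peaks. The paper reports more reads for the Ezh2m+/p+ than for the Ezh2m-/p+ libraries, both H3K27me2 and input. How many reads stand behind each parental list is unknown here. A gene without a peak may therefore be one in which a peak was not detectable. A gene is called below when at least 1 peak of a list was assigned to it, which the deposited annotation did by nearest transcription start site.

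Glutamate opens AMPA, kainate and NMDA receptor channels, which carry fast excitation in the brain, and it also acts through the metabotropic receptors, which signal through G proteins. GABA opens the GABA-A receptor channels, which carry fast inhibition and are assembled from alpha, beta, gamma and other subunits. Many of these genes are long, are transcribed mainly in neurons and are silent in most other cells. H3K27me2 is laid down by PRC2, whose catalytic subunit is EZH2 or EZH1.

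The following stretches of sequence show part of the DNA under some of the members' peaks. All are from the C57BL/6J reference (GRCm38.p6, plus strand), so the PWK bases under the paternal peaks may differ. CG dinucleotides are in capitals. The first lies shortly before the start site of Gabrr1, at chr4:33132306-33132505, inside an Ezh2m+/p+ maternal peak, and holds 6 CG dinucleotides. The second is the centre of the peak of largest fold at any member, a paternal Ezh2m-/p+ peak in Grm7, at chr6:111497501-111497700, and holds 0. The last pair lies before Grik3, where a maternal and a paternal peak of the Ezh2m+/p+ zygotes stood 0.802 kb apart. The maternal stretch is chr4:125475901-125476100 and the paternal stretch chr4:125478601-125478800, and each holds 3 CG dinucleotides. The Grm7 and Grik3 stretches were chosen after their values were seen.
Gabrr1: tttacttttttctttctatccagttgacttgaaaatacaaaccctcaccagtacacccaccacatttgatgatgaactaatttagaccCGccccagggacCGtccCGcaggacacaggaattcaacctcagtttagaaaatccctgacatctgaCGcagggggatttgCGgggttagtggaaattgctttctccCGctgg
Grm7: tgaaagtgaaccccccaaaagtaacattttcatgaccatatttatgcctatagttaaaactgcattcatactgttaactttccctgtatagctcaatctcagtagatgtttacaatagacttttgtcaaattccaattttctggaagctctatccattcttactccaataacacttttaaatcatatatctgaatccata
Grik3 maternal: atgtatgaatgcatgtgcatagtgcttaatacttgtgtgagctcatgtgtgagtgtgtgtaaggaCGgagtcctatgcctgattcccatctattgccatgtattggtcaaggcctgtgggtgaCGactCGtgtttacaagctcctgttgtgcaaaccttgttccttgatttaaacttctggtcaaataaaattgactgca
Grik3 paternal: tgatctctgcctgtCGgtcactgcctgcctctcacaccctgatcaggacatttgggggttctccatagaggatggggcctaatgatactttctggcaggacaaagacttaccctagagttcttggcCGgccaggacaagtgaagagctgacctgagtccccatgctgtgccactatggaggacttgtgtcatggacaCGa

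The receptor genes carried peaks in all 4 lists, some in one parental genome and some in both. In the Ezh2m+/p+ zygotes, 11 of the 43 genes were called in the maternal genome (25.6%, 95% Wilson interval 14.9 to 40.2%), where 14.6% of all protein-coding genes were called. In the paternal genome of the same zygotes 13 were called (30.2%, 18.6 to 45.1%), beside 20.3% of all genes. In the Ezh2m-/p+ zygotes 12 were called in the maternal genome (27.9%, 16.7 to 42.7%), beside 21.1% of all genes, and 16 in the paternal genome (37.2%, 24.4 to 52.1%), beside 23.8%. At least 1 list called 29 of the 43 genes (67.4%, 52.5 to 79.5%), beside 45.3% of all genes. In percentage points, the members exceeded the background by the widest margin in this pooled count, but they are also far longer than other genes. Among genes over 50 kb the members' pooled shares were below those of all genes of like length, as given with gene length below.

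**Figure D1:**
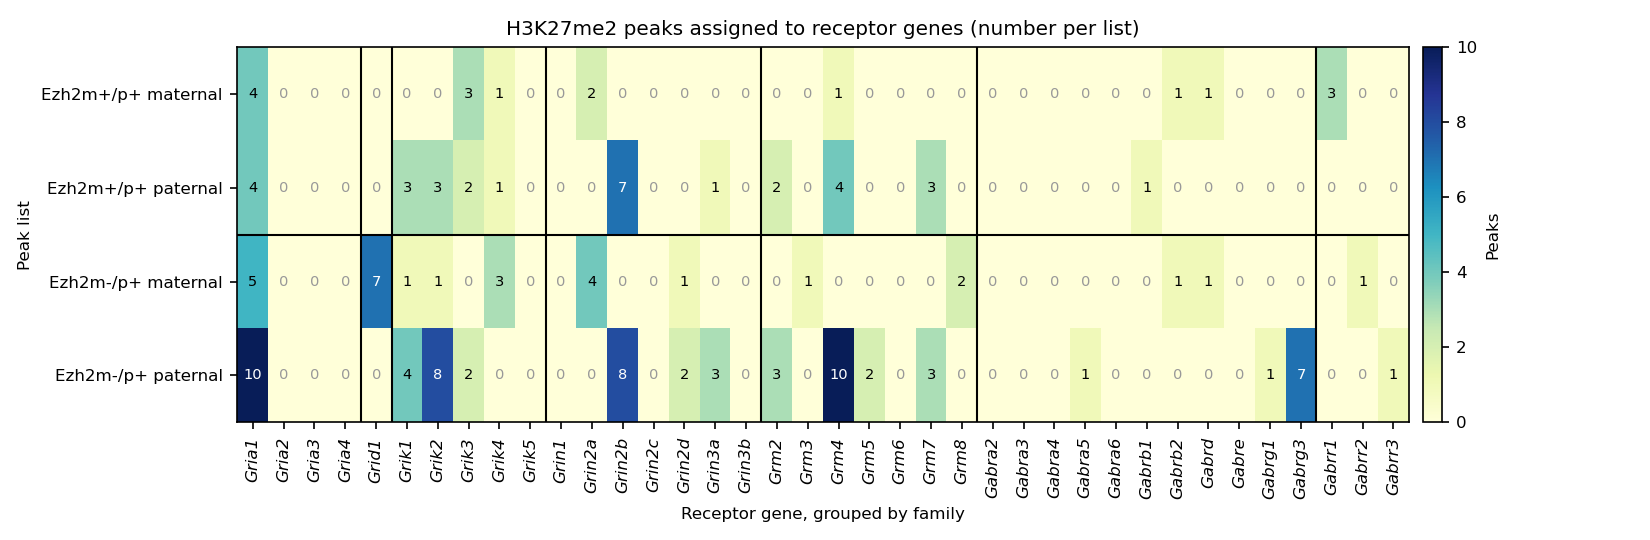
Number of H3K27me2 peaks assigned to receptor genes (columns, grouped by AMPA, delta, kainate, NMDA, metabotropic, GABA-A and rho families) in each of the 4 peak lists (rows), with darker cells for more peaks. Gria1 held peaks in all 4 lists, Grin2b in the paternal lists only, and Grid1 and Grin2a in maternal lists only.

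Together the members held 20, 35, 28 and 72 peaks in the Ezh2m+/p+ maternal, Ezh2m+/p+ paternal, Ezh2m-/p+ maternal and Ezh2m-/p+ paternal lists. This was 0.348% of the first list (95% Wilson interval 0.226 to 0.537%), 0.196% of the second (0.141 to 0.272%), 0.291% of the third (0.202 to 0.421%) and 0.315% of the fourth (0.251 to 0.397%). A called member had 1.82, 2.69, 2.33 and 4.50 peaks on average in these lists, and a called gene of any kind 1.57, 3.50, 1.81 and 3.79. The members thus had fewer peaks per called gene than all genes in the Ezh2m+/p+ paternal list and more in the other 3 lists. They made up 43 of the 21631 protein-coding genes but are far longer than most, and these values were not compared within length classes.

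Of the 4 AMPA receptor genes, which encode the channels of most fast excitatory synapses, only Gria1 was assigned peaks. Gria1 was also the only member called in both parental genomes of both genotypes, with 4 Ezh2m+/p+ maternal, 4 Ezh2m+/p+ paternal, 5 Ezh2m-/p+ maternal and 10 Ezh2m-/p+ paternal peaks. The Ezh2m+/p+ maternal peaks were chr11:56972601-56976199 (fold 5.70), chr11:57147201-57149999 (37.5), chr11:57152201-57155399 (5.19) and chr11:57223201-57227799 (5.70), where the fold is the authors' ratio of H3K27me2 over input reads. The first lay 35.4 kb before the gene (chr11:57011571-57330244, plus strand) and the others were intronic.

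In the paternal genome of the Ezh2m+/p+ zygotes the Gria1 peaks were chr11:56952801-56953999 (fold 36.1), chr11:57004401-57005999 (72.2), chr11:57243201-57244799 (60.2) and chr11:57287601-57289599 (36.1). The first pair lay before the gene, the third in an intron and the last over an exon. The Ezh2m-/p+ maternal peaks were chr11:56717401-56720399 (fold 5.45), chr11:56836201-56837999 (25.2), chr11:56880001-56882399 (33.7), chr11:57009001-57010999 (22.2) and chr11:57162001-57164599 (33.7). Only the last was inside the gene body, in an intron, and the one before it ended 0.572 kb before the gene.

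The 10 Ezh2m-/p+ paternal peaks of Gria1 ran from before the gene to just past its end. Those before the gene were chr11:56943601-56945799 (fold 7.88), chr11:56989201-56991799 (8.87) and chr11:57004601-57007999 (5.91). Those in introns were chr11:57110201-57111399 (78.8), chr11:57205601-57208599 (12.8), chr11:57245801-57247399 (9.19) and chr11:57252801-57253799 (9.85). Toward the gene end stood chr11:57287401-57291199 (19.7, exon), chr11:57326601-57328599 (11.8, 3′ UTR) and chr11:57334201-57335599 (17.7), the last 3.96 kb past the gene. No maternal peak of Gria1 overlapped a paternal one, and the smallest gap between the genomes was 15.4 kb in Ezh2m+/p+ and 1.0 kb in Ezh2m-/p+ zygotes.

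Grid1, a delta receptor, a class that binds cerebellins at synapses, was called only in the maternal genome. It had no assigned Ezh2m+/p+ peak but 7 Ezh2m-/p+ maternal peaks, of which 6 lay in the gene body. The longest of these, which was also the longest maternal Ezh2m-/p+ peak of any member, was chr14:35363201-35366799 (3599 bp, fold 5.07). The count by assignment understates the Ezh2m+/p+ maternal genome here, since 3 of its peaks overlapped the Grid1 body without being assigned to Grid1. In all, 3 Ezh2m+/p+ and 8 Ezh2m-/p+ maternal peaks overlapped the body.

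The kainate receptor genes, whose channels also act before the synapse on transmitter release, were the family most often called in both genomes. Grik1 to Grik4 had peaks of both parental genomes over the 4 lists, and Grik5 had none. Grik3 held 3 Ezh2m+/p+ maternal peaks, and among them were the peak of largest fold of any member in that list, chr4:125468601-125472999 (4399 bp, fold 64.3), and the longest of any member, chr4:125413801-125425799 (11999 bp, fold 6.20). Both stood before the gene, 17.3 and 64.5 kb away. In the paternal genome Grik3 had 2 peaks in each genotype, and in the Ezh2m-/p+ maternal genome it had none assigned, although 3 peaks overlapped its body.

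Grik2 had 3 Ezh2m+/p+ paternal, 1 Ezh2m-/p+ maternal and 8 Ezh2m-/p+ paternal peaks, and tied with Grin2b for the third most in the last list. The 8 included 3 distant peaks, chr10:48028001-48029399, chr10:48398001-48399999 and chr10:48814001-48815599, each of fold 63.0, of which the first lay 1064 kb from the gene and was the most distant peak assigned to any member. The other 5 lay in the gene body (chr10:49093680-49790161, minus strand) at chr10:49289001-49290399 (fold 94.6), chr10:49734401-49735799 (126), chr10:49740401-49741999 (9.85), chr10:49750001-49751799 (63.0) and chr10:49780001-49781599 (70.9). Grik1 had 3 Ezh2m+/p+ paternal, 1 Ezh2m-/p+ maternal and 4 Ezh2m-/p+ paternal peaks, and its peak chr16:88145401-88147999 (2599 bp, fold 60.2) was the longest Ezh2m+/p+ paternal peak of any member. Grik4 had 1, 1, 3 and 0 peaks in the 4 lists in the order given above.

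Among the NMDA receptor genes, Grin2a and Grin2b, which encode the main glutamate-binding subunits of the forebrain, were called in opposite parental genomes. Grin2b had 0 maternal peaks in both genotypes and 7 Ezh2m+/p+ and 8 Ezh2m-/p+ paternal peaks. Grin2a had 0 paternal peaks in both genotypes and 2 Ezh2m+/p+ and 4 Ezh2m-/p+ maternal peaks. The wider surroundings were split in the same way: in the gene and 500 kb on either side, the lists held 0, 30, 0 and 35 peaks for Grin2b and 9, 0, 11 and 0 for Grin2a.

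The Ezh2m+/p+ paternal peaks of Grin2b (chr6:135713221-136173615, minus strand) included chr6:136172601-136174999 over its start site, which at fold 132 was the largest fold of any member in that list. The others were chr6:135946201-135948599 (fold 60.2), chr6:135951001-135952199 (60.2), chr6:135979401-135980399 (36.1), chr6:135981801-135983999 (36.1) and chr6:136034201-136035399 (36.1) in introns and chr6:136214201-136215799 (48.1) before the gene. In the Ezh2m-/p+ paternal list the start-site peak was chr6:136172401-136174999 and had fold 11.8. Beside it stood chr6:136004801-136006199 (78.8), chr6:136010601-136013799 (5.91) and chr6:136111201-136113199 (7.88) in introns. Before the gene were chr6:136197601-136198599 (63.0), chr6:136212201-136213399 (63.0), chr6:136215001-136216199 (19.7) and chr6:136229401-136230399 (78.8). The start-site peak and 1 upstream peak overlapped between the genotypes, and the intronic peaks did not.

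Of the Grin2a peaks, chr16:10004601-10006199 (1599 bp, fold 44.4), which lay 8.52 kb before the gene, had the largest fold of any member in the Ezh2m-/p+ maternal list. Grin2d had 1 Ezh2m-/p+ maternal and 2 Ezh2m-/p+ paternal peaks, and Grin3a, which encodes a glycine-binding subunit, had 1 Ezh2m+/p+ and 3 Ezh2m-/p+ paternal peaks. Grin1, the subunit present in every NMDA receptor, had no assigned peak, and neither did Grin2c or Grin3b. Grin1 nevertheless lay in surroundings with maternal peaks, of which Ezh2m+/p+ zygotes had 4 and Ezh2m-/p+ zygotes 11, and 0 paternal peaks.

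**Figure D2:**
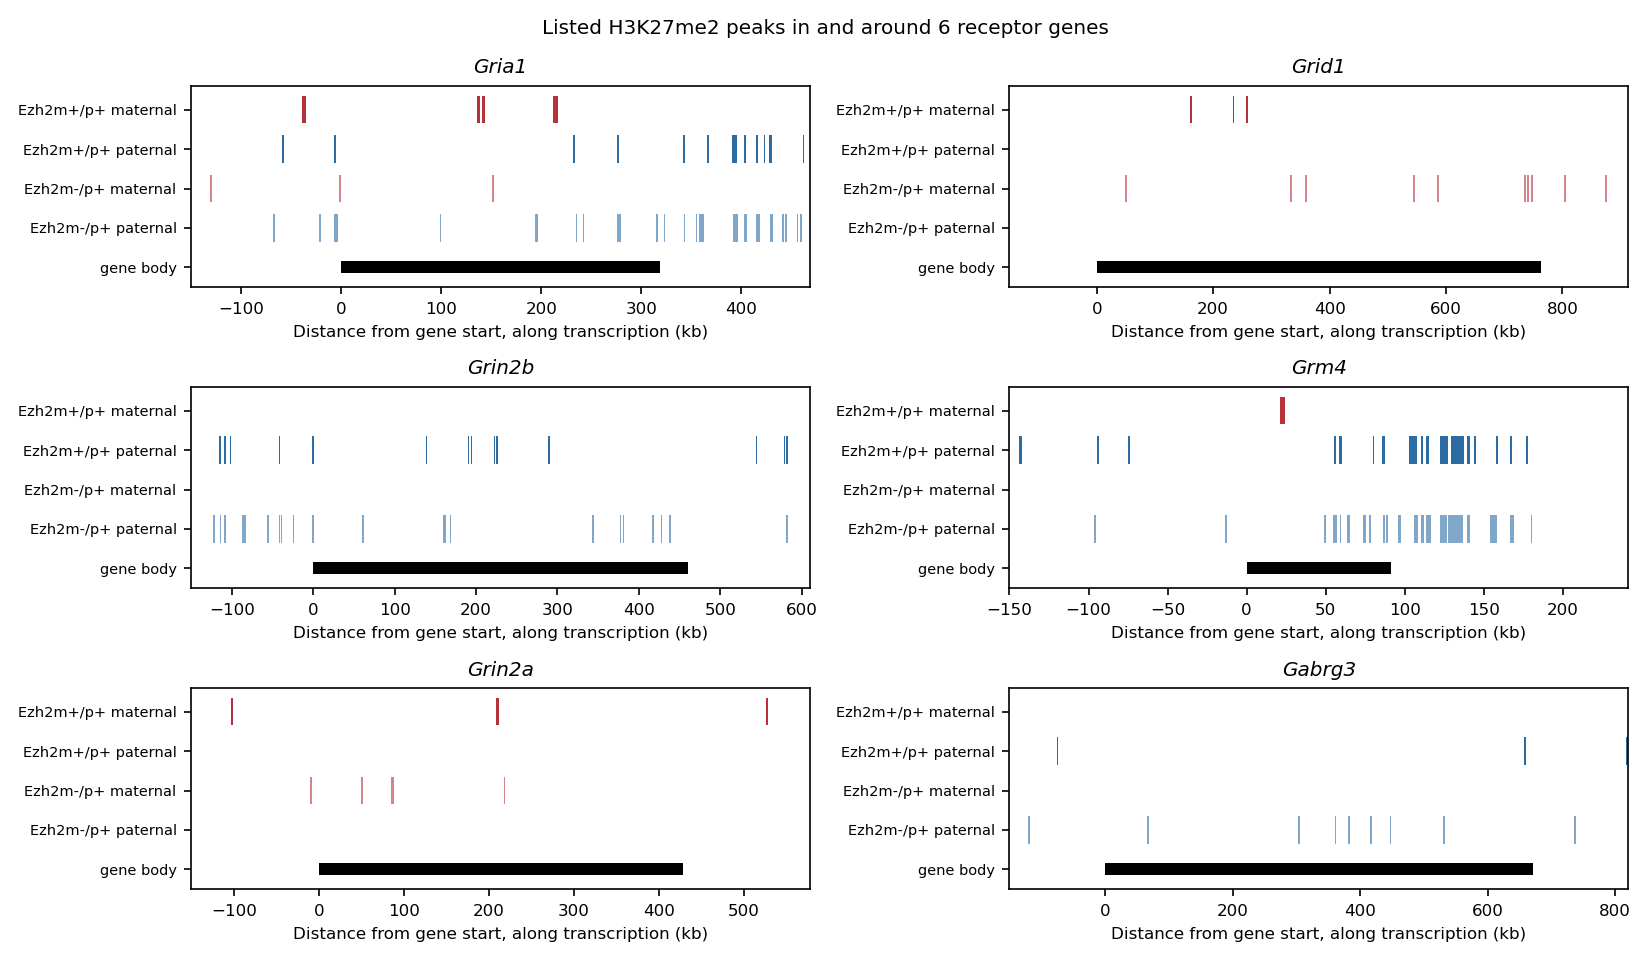
Listed H3K27me2 peaks (coloured marks, maternal red and paternal blue, paler for Ezh2m-/p+; short peaks are drawn at a minimum width) along 6 receptor genes and their flanks, by distance in kb from the gene start; the black bar is the gene body, and all peaks of the lists are drawn whether or not assigned to the gene. Grin2b holds blue marks only and Grin2a red marks only, and the Grm4 marks are densest past its 3′ end.

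Metabotropic glutamate receptor genes held 1, 9, 3 and 18 peaks in the 4 lists. Grm4, a receptor coupled to inhibitory G proteins, had 1 Ezh2m+/p+ maternal, 4 Ezh2m+/p+ paternal, 0 Ezh2m-/p+ maternal and 10 Ezh2m-/p+ paternal peaks. Its Ezh2m+/p+ paternal peaks were chr17:27426201-27428199 (fold 7.52), chr17:27433001-27434199 (6.77), chr17:27453601-27455199 (13.5) and chr17:27457601-27458799 (5.02), and all lay in the gene body (chr17:27422387-27513826, minus strand).

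The Ezh2m-/p+ paternal peaks of Grm4 covered a similar stretch of the gene and extended past it. In the gene body were chr17:27424401-27425399 (fold 63.0), chr17:27426601-27427599 (23.6), chr17:27435401-27436599 (7.88), chr17:27438601-27439999 (63.0), chr17:27448601-27450599 (142), chr17:27454001-27454999 (142), chr17:27456401-27458999 (13.8) and chr17:27463401-27464999 (8.54). Outside it were chr17:27416201-27417799 (126) and chr17:27526001-27527399 (78.8). The peaks covered 6.56% of the Grm4 body in Ezh2m+/p+ and 12.9% in Ezh2m-/p+ paternal chromatin.

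Grm7, a presynaptic receptor, had 3 paternal peaks in each genotype, and Grm2, a presynaptic autoreceptor, had 2 (Ezh2m+/p+) and 3 (Ezh2m-/p+). Grm7 held both the largest fold of any member in the Ezh2m-/p+ paternal list, chr6:111495601-111499599 (3999 bp, fold 189), and the longest peak, chr6:110988801-110993799 (4999 bp, fold 15.8). Grm5, which is coupled to phospholipase C, had 2 Ezh2m-/p+ paternal peaks. Grm3 and Grm8 had Ezh2m-/p+ maternal peaks only, 1 and 2. Grm6 had none assigned.

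The GABA-A members other than the rho genes held 5, 5, 2 and 16 peaks in the 4 lists, and 9 of the 14 genes were called in at least 1 list. Most of these genes stand in clusters. On chromosome 7, Gabrg3 and Gabra5 were assigned peaks in the Ezh2m-/p+ paternal list only, 7 and 1, but 1 Ezh2m+/p+ paternal peak also overlapped the body of each. All 7 of Gabrg3 lay in its gene body. On chromosome 11, Gabrb2 had 1 maternal peak in each genotype and 0 paternal peaks, and Gabra6 had none.

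On chromosome 5, Gabrg1, Gabra2, Gabra4 and Gabrb1 were assigned 0 maternal peaks and 1 paternal peak in each genotype, namely Gabrb1 (Ezh2m+/p+) and Gabrg1 (Ezh2m-/p+). The body of Gabrb1 was nevertheless overlapped by 1 maternal peak in each genotype. The X-linked members Gabra3, Gabre and Gria3 had no assigned peak in any list, although 1 Ezh2m+/p+ paternal peak overlapped the body of Gabra3. Gabrd, which encodes the delta subunit of receptors outside the synapse, was the only member with an overlapping pair of maternal peaks in the 2 genotypes. Its peaks were chr4:155392601-155396599 (3999 bp, fold 46.9) in Ezh2m+/p+ and chr4:155393801-155396999 (3199 bp, fold 5.83) in Ezh2m-/p+ zygotes, and they shared 2799 bp. They covered 30.5% and 24.4% of this short gene.

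The rho genes encode GABA-gated channels best known from the retina. Gabrr1 had 3 Ezh2m+/p+ maternal peaks, which covered 18.2% of its body, and none in the other lists. Its neighbour Gabrr2 had 1 Ezh2m-/p+ maternal peak, and Gabrr3, on another chromosome, 1 Ezh2m-/p+ paternal peak. The surroundings of Gabrr1 and Gabrr2, which overlap, were rich in maternal peaks, with 10 Ezh2m+/p+ and 16 Ezh2m-/p+ maternal peaks for each gene and at most 3 paternal peaks.

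The parental genomes of a zygote were compared within each library, as genes called in one genome, the other or both. In the Ezh2m+/p+ zygotes 6 members were called in the maternal genome only (10.6% of all genes), 8 in the paternal genome only (all genes 16.3%) and 5, or 11.6%, in both (all genes 3.98%). In the Ezh2m-/p+ zygotes 8 were maternal only (all genes 15.0%), 12 paternal only (all genes 17.7%) and 4, or 9.30%, in both (all genes 6.08%). More members were thus called in the paternal than in the maternal genome, by 2 (Ezh2m+/p+) and 4 (Ezh2m-/p+), but the paternal lists were also the longer ones. By read coverage, the paper reports less H3K27me2 on the paternal than on the maternal genome, so numbers of peaks are not read as levels here. With lists cut to equal size by highest fold, the Ezh2m+/p+ maternal genome had 5 more called members than the paternal. This cut left the Ezh2m+/p+ maternal list whole and kept only the highest folds of the other lists, so the fold thresholds were unlike. With peaks over 2000 bp the maternal genome of these zygotes had 7 more. The direction between their parental genomes therefore depended on the cut to equal size and on the peak length. In Ezh2m-/p+ zygotes the paternal genome stayed ahead under these settings, by 2 and 1.

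By assigned peaks over both genotypes together, 10 members had maternal peaks only, 11 paternal peaks only, 8 peaks of both and 14 none, against 18.9, 18.1, 8.36 and 54.7% of all genes. The maternal group (23.3% of members) included Gabrb2, Gabrd, Gabrr1, Gabrr2, Grid1, Grin2a, Grm3 and Grm8. The paternal group (25.6%) included Gabra5, Gabrb1, Gabrg1, Gabrg3, Gabrr3, Grin2b, Grin3a, Grm2, Grm5 and Grm7, although Gabrb1 had unassigned maternal peaks over its body and more maternal than paternal peaks around it in both genotypes. Both genomes (18.6%) held peaks of Gria1, Grik1, Grik2, Grik3, Grik4, Grin2d and Grm4. Genes with no assigned peak (32.6%) included Gabra2, Gabra3, Gabra4, Gabra6, Gabre, Gria2, Gria3, Gria4, Grik5, Grin1, Grin2c, Grin3b and Grm6.

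Where both genomes of a genotype had peaks at a member, the peaks stood at different positions. No maternal peak of a member overlapped a paternal peak in any list, and such overlap was rare over all genes too, with 24 of the 5744 maternal peaks in Ezh2m+/p+ and 40 of the 9606 in Ezh2m-/p+ zygotes. The smallest gap was 0.802 kb at Grik3, 30.6 kb at Grm4 and 44.4 kb at Grik4 in Ezh2m+/p+ zygotes. In Ezh2m-/p+ zygotes it was 1.0 kb at Gria1, 8.60 kb at Grin2d, 33.4 kb at Grik1 and 172 kb at Grik2.

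In the surroundings of the members, windows with peaks of both parental genomes were the largest class, though at a smaller share than for all genes. Within a member gene and 500 kb on either side, Ezh2m+/p+ peaks were maternal only for 10 members (23.3%, all genes 23.0%), paternal only for 12 (27.9%, all genes 17.3%), of both genomes for 16 (37.2%, all genes 50.4%) and absent for 5 (11.6%, all genes 9.26%). In Ezh2m-/p+ zygotes the numbers were 11 (25.6%, all genes 22.0%), 13 (30.2%, all genes 12.6%), 17 (39.5%, all genes 58.6%) and 2 (4.65%, all genes 6.85%). The genome with more peaks was the same in both genotypes for 31 members (72.1%, all genes 74.9%), the opposite for 0 (all genes 8.37%) and tied in a genotype for the other 12. Clustered members share parts of these windows, so they are not independent of each other.

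The paternal genome was ahead in both genotypes around 21 members (48.8%, all genes 46.2%) and the maternal around 10 (23.3%, all genes 28.7%). The windows richest in paternal peaks were those of Gria1 (45 Ezh2m+/p+ and 62 Ezh2m-/p+ paternal peaks, against 4 and 5 maternal) and Grm2 (37 and 50, against 0 and 1). Grin2b followed with the 30 and 35 paternal peaks given above, and then Grm4 with 26 and 34, against 1 and 3 maternal. Windows with many maternal and 0 paternal peaks included those of Grin2a, Grid1 (5 and 15 maternal) and Grm6, whose receptor serves the retinal ON bipolar cells (11 and 10 maternal). Around Gria3 no list had a peak.

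**Figure D3:**
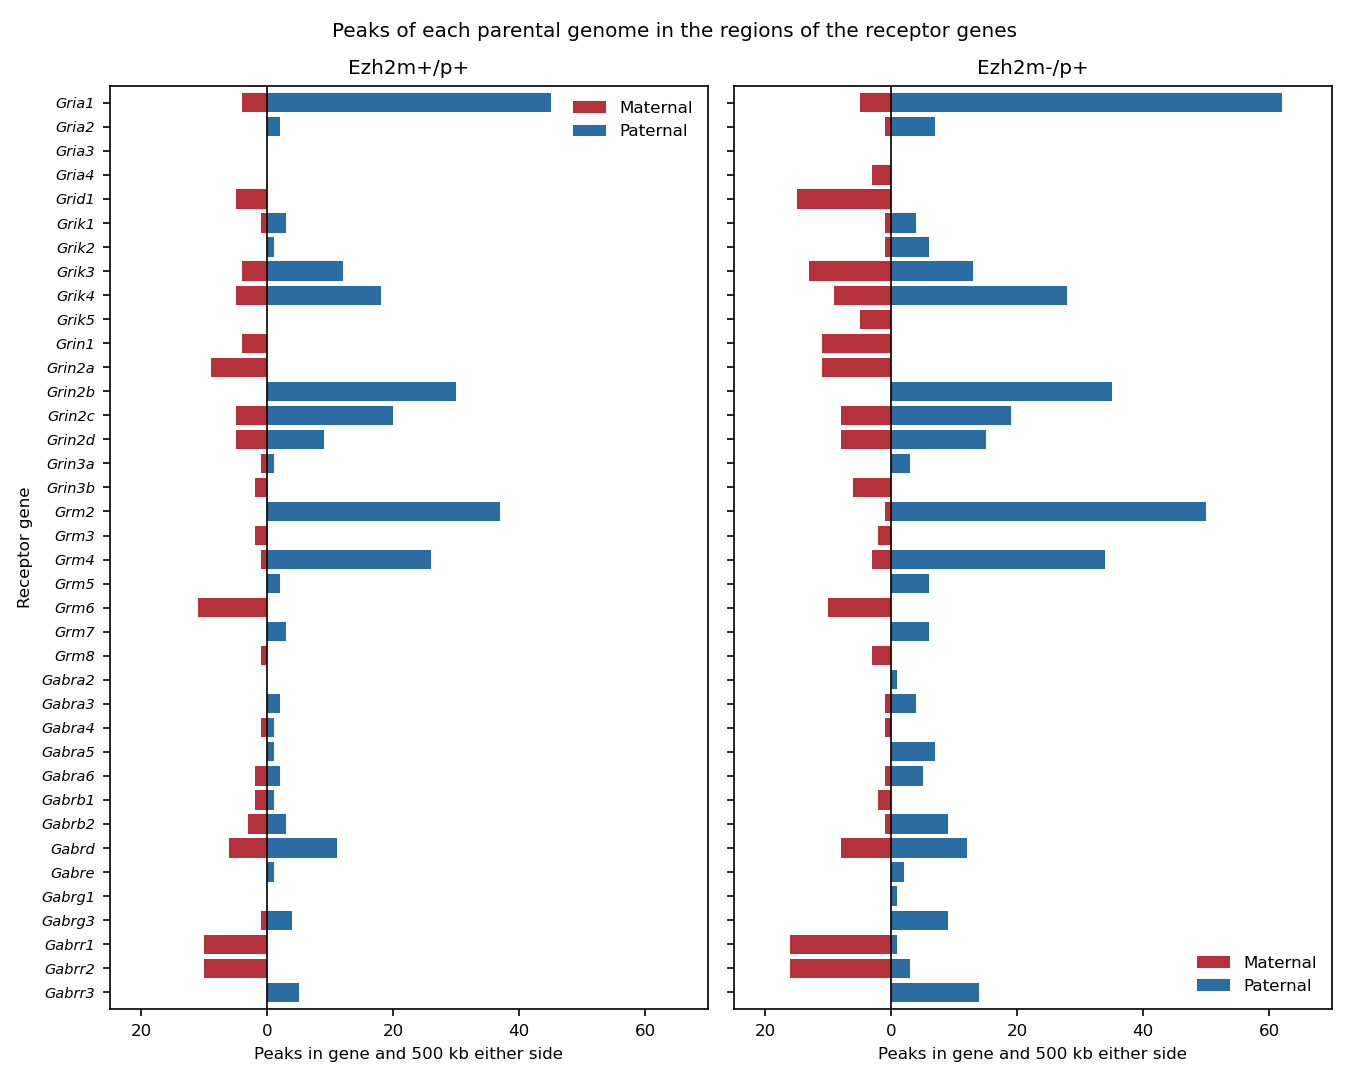
Number of listed peaks in receptor genes and the 500 kb on either side, maternal to the left and paternal to the right, in Ezh2m+/p+ (left panel) and Ezh2m-/p+ (right panel) zygotes. No gene shown has its longer bar on opposite sides in the 2 panels; Gria1 reaches 45 and 62 paternal peaks and Gabrr1 10 and 16 maternal peaks.

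The genotypes were set side by side in each parental genome, with 1 library each and, as given above, fewer reads for Ezh2m-/p+. In the maternal genome 5 members were called in both genotypes (11.6%, all genes 8.44%), 6 in Ezh2m+/p+ only (14.0%, all genes 6.17%) and 7 in Ezh2m-/p+ only (16.3%, all genes 12.6%). In the paternal genome 10 were called in both (23.3%, all genes 17.6%), 3 in Ezh2m+/p+ only (6.98%, all genes 2.67%) and 6 in Ezh2m-/p+ only (14.0%, all genes 6.17%). The 5 maternal genes were Gabrb2, Gabrd, Gria1, Grik4 and Grin2a, and the 10 paternal genes included Gria1, Grik1, Grik2, Grik3, Grin2b, Grin3a, Grm2, Grm4 and Grm7. At fold over 10, 2 maternal genes were left, and with peaks over 2000 bp 2 paternal genes.

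In the paternal genome, fewer of the members' peaks than of all peaks kept their position between the genotypes. Of the 20 Ezh2m+/p+ maternal peaks, 1 (5.00%, 95% Wilson interval 0.888 to 23.6%, all peaks 9.47%) overlapped an Ezh2m-/p+ maternal peak by at least 1 bp. Of the 35 Ezh2m+/p+ paternal peaks, 14 did so (40.0%, 25.6 to 56.4%, all peaks 66.1%). From the Ezh2m-/p+ side the shares were 3.57% of 28 maternal (0.633 to 17.7%, all peaks 5.78%) and 20.8% of 72 paternal peaks (13.1 to 31.6%, all peaks 45.7%). At this overlap of 1 bp both paternal intervals lie below the share of all peaks, and both maternal intervals include it. The intervals treat peaks of the same gene as independent, which they may not be. The shares from either genotype count largely the same pairs, so they do not bear on each other as separate results. The paternal pairs lay at 8 genes, among them Grm4 with 3, Gria1, Grik2, Grin2b and Grm2 with 2 each, and Grik1 and Grik3 with 1 each. When at least 50% of each peak had to be shared, 8 of the 35 Ezh2m+/p+ paternal peaks remained (22.9%, 12.1 to 39.0%, all peaks 31.4%), and their interval then included the share of all peaks. From the other side, 8 of the 72 Ezh2m-/p+ paternal peaks remained (11.1%, 5.74 to 20.4%, all peaks 24.6%), with an interval below it.

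In the paternal lists the members' peaks were also less crowded than peaks in general. The median number of other peaks of the same list within 500 kb was 10.0 for the members and 22.0 for all peaks in the Ezh2m+/p+ paternal list, and 9.50 and 25.0 in the Ezh2m-/p+ paternal list. For maternal peaks it was 3.0 against 5.0 with maternal EZH2 and 7.0 against 7.0 without it. The part of this crowding, and of the members' shorter paternal peaks given below, in the lower overlap was not tested.

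The members were far longer than other genes. Members had a median length of 184 kb, against 17.3 kb for all protein-coding genes. Of the 43 members 21 (48.8%) exceeded 200 kb, against 4.58% of all genes. Called members were longer than members not called in every list, with medians of 213 against 184 kb in Ezh2m+/p+ maternal, 319 against 107 kb in Ezh2m+/p+ paternal, 357 against 123 kb in Ezh2m-/p+ maternal and 204 against 137 kb in Ezh2m-/p+ paternal. Over all genes the called ones were longer too, with medians of 47.0 against 14.9, 30.7 against 15.3, 42.8 against 14.1 and 29.5 against 15.0 kb.

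Within length classes the members' shares lay on both sides of those of other genes, with wide intervals. Among genes over 200 kb, at least 1 list called 17 of 21 members (81.0%, 95% Wilson interval 60.0 to 92.3%) and 82.8% of all genes. List by list in the order above, 6, 9, 9 and 8 of the 21 long members were called (28.6, 42.9, 42.9 and 38.1%), against 46.9, 48.1, 54.5 and 51.2% of all genes of that length. All 4 shares were below the background, and the interval of the members included it in each list, with 13.8 to 50% for the lowest share, in the Ezh2m+/p+ maternal genome. The long members called in no list included Gabra3, Gria3 and Gria4.

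Among genes of 50 to 200 kb, 3, 3, 0 and 6 of 11 members were called, against 27.4, 30.4, 39.0 and 35.3% of all genes, and 7 of 11 in any list (63.6%) against 69.1%. The 0 of 11 in the Ezh2m-/p+ maternal list had an upper interval limit of 25.9%, and the 6 of 11 in the Ezh2m-/p+ paternal list (54.5%) an interval of 28.0 to 78.7%. Among genes under 50 kb, 2, 1, 3 and 2 of 11 members were called, against 9.67, 16.2, 14.8 and 19.4% of all genes, and 5 of 11 in any list (45.5%) against 37.5%. The 5 short members with a peak were Gabrd, Gabrr1, Gabrr2, Grin2d and Grm2.

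**Figure D4:**
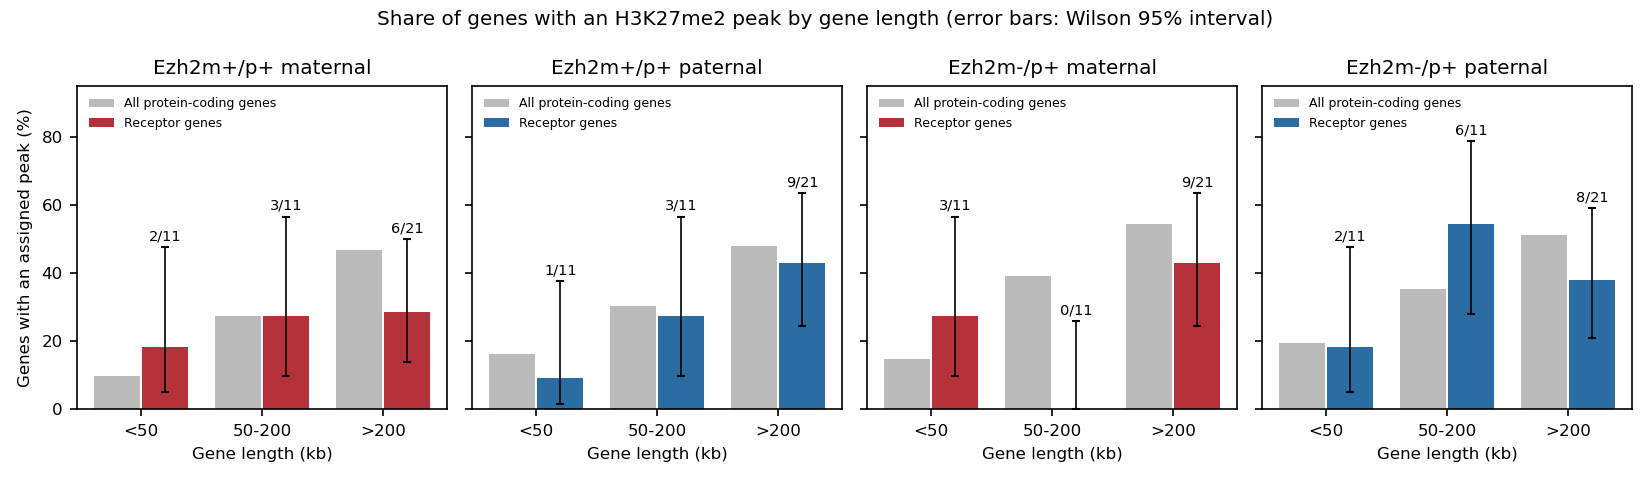
Share of genes with an assigned H3K27me2 peak (%) by gene length class in each list, for all protein-coding genes (grey) and for the receptor genes (coloured; number called of number of members above each bar; error bars are 95% Wilson intervals for counting error). In the class over 200 kb the receptor bars stand below the grey bars in all 4 lists, and the intervals are wide.

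Start-site peaks, taken as those within 3 kb of the start of the transcript that the deposited annotation chose, were found at 15 members. They made up 2 of 20, 4 of 35, 5 of 28 and 11 of 72 member peaks in the 4 lists (10.0, 11.4, 17.9 and 15.3%), against 15.8, 17.3, 16.5 and 16.9% of all peaks. Only 12 of these 22 peaks, at 9 genes, lay within 3 kb of the outermost 5′ end of the gene, and the others were at starts of shorter transcripts inside it. At Grid1 and Grm7, for instance, the nearest was 746 and 846 kb inside, near the 3′ end.

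Among the peaks at the 5′ end were, in the maternal genome, the Gabrd pair given above, the Gabrr1 peak chr4:33129801-33132999 (3199 bp, fold 6.20, Ezh2m+/p+) and the Gria1 peak chr11:57009001-57010999 (1999 bp, fold 22.2, Ezh2m-/p+). Among paternal Ezh2m+/p+ peaks they were the Grin2b peak of fold 132, the Grin3a peak chr4:49845401-49846399 (999 bp, fold 12.0) and the Grm2 peak chr9:106654001-106655399 (1399 bp, fold 9.03). Paternal Ezh2m-/p+ peaks there included the Grin2b peak of fold 11.8, chr16:59404601-59406999 at Gabrr3 (2399 bp, fold 9.85), chr16:88288601-88289799 at Grik1 (1199 bp, fold 11.8) and chr9:106653601-106654999 at Grm2 (1399 bp, fold 94.6). Only at Gabrd, Grin2b and Grm2 did both genotypes have a peak of the same parental genome there.

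The starts of inner transcripts had maternal Ezh2m-/p+ peaks at Gabrr2 (chr4:33076801-33078399, 1599 bp, fold 22.2), Grid1 (chr14:35566201-35568599, 2399 bp, fold 32.9) and Grin2d (chr7:45862601-45865799, 3199 bp, fold 5.93). Paternal ones were at Gabra5 (chr7:57506601-57507599, 999 bp, fold 94.6) and Grik2 (chr10:49780001-49781599, 1599 bp, fold 70.9), both Ezh2m-/p+. Grm7 had chr6:111491001-111493199 (2199 bp, fold 7.88) and its peak of fold 189. Grm2, a gene of 11.6 kb, had chr9:106642601-106643799 (1199 bp, fold 72.2) in Ezh2m+/p+ and chr9:106642601-106644999 (2399 bp, fold 8.87) and chr9:106647801-106649399 (1599 bp, fold 7.88) in Ezh2m-/p+ zygotes. Taken over its whole length, 12.1% of Grm2 was covered by Ezh2m+/p+ and 29.9% by Ezh2m-/p+ paternal peaks.

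Introns held the largest or second largest share of the members' peaks in each list. The intron share was 40.0% of 20, 45.7% of 35, 46.4% of 28 and 38.9% of 72 member peaks in the order above, against 31.4, 28.2, 31.7 and 27.3% of all peaks. The distal intergenic share was 45.0, 34.3, 35.7 and 29.2%, against 33.9, 40.2, 35.8 and 40.7% of all peaks. Exons held 1, 1, 0 and 5 member peaks and UTRs 0, 2, 0 and 7. The intron and exon classes can refer to another gene at the same place. In all, 11, 21, 17 and 48 member peaks overlapped the body of their own gene, and 3, 5, 6 and 7 lay over 100 kb outside it.

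The median fold of member peaks was 6.20, 36.1, 22.9 and 63.0, and that of all peaks 7.37, 36.1, 23.7 and 15.8. The fold took 11 different values over the 35 Ezh2m+/p+ and 22 over the 72 Ezh2m-/p+ paternal member peaks, and 16 of the latter had the same fold of 63.0. In the maternal lists it took 14 values over 20 and 20 over 28 peaks. Because paternal folds repeat in this way, no difference in fold between lists, or between members and all peaks, is read from these medians. The Grin2b start-site peak, of fold 132 in one genotype and 11.8 in the other, is read here as present in both.

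**Figure D5:**
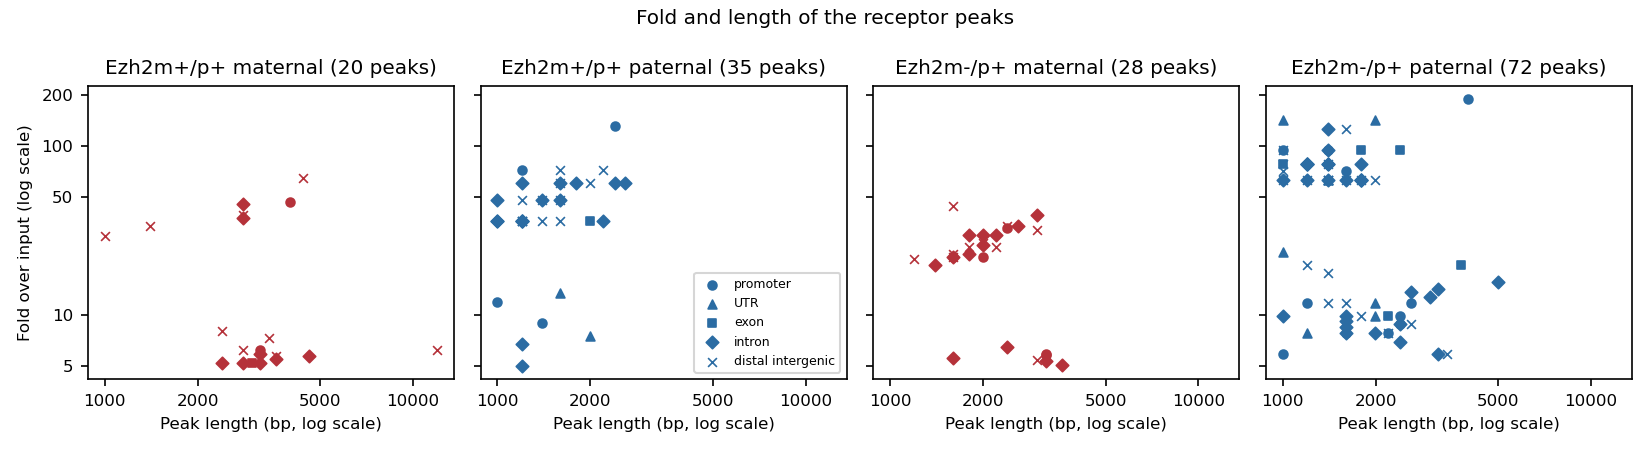
Fold over input (log scale) against peak length in bp (log scale) for the 155 member peaks, 1 panel per list, with a marker for each annotation class. Many paternal points fall on repeated fold levels, such as 36.1 and 63.0, and the longest point is the Grik3 peak of 11999 bp.

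Maternal Ezh2m+/p+ peaks at the members were the longest, with a median of 3099 bp, against 1399 bp for the Ezh2m+/p+ paternal, 1999 bp for the Ezh2m-/p+ maternal and 1599 bp for the Ezh2m-/p+ paternal peaks. Over all peaks the medians were 2999, 1799, 2199 and 1999 bp. The base composition of the member peaks was close to that of all peaks of the same list, with a median GC content of 45.3, 44.6, 44.5 and 44.3% against 45.5, 44.7, 45.6 and 44.0%. CG dinucleotides were somewhat sparser at the members, with medians of 8.62, 8.01, 6.39 and 7.72 per kb against 9.23, 8.70, 9.29 and 8.19.

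Genes that work with these receptors were counted as a further list of 66 genes, which held the GABA-B and glycine receptors, the GABA-A subunit genes Gabrp and Gabrq, which are outside the symbols chosen for the members, the enzymes and transporters of glutamate and GABA, auxiliary subunits and synaptic scaffolds. Of these, 20 (30.3%, 95% Wilson interval 20.6 to 42.2%), 24 (36.4%, 25.8 to 48.4%), 28 (42.4%, 31.2 to 54.4%) and 25 (37.9%, 27.1 to 49.9%) were called in the 4 lists, against the 14.6, 20.3, 21.1 and 23.8% of all genes given above, and 49 (74.2%) in at least 1, against 45.3%. These genes too were longer than others, with a median of 63.3 kb and 12 of 66 (18.2%) over 200 kb, and their shares were not compared within length classes. Shisa6, an auxiliary AMPA receptor subunit, had 0, 10, 1 and 13, and Dlg2, a postsynaptic scaffold, 4, 12, 2 and 13. The glycine receptor gene Glra1 had 3, 0, 3 and 0 peaks, and the glutamate transporter genes Slc1a1 and Slc1a3 had 2, 0, 3 and 0 and 4, 0, 2 and 0, all maternal, while a further glutamate transporter gene, Slc1a2, had 0, 2, 3 and 9. Gad1 and Gad2, the enzymes that make GABA, had 0, 1, 0 and 1 and 0, 0, 1 and 0 peaks.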

How the data were processed

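H3K27me2 ULI-NChIP-seq libraries of Ezh2m+/p+ and Ezh2m-/p+ zygotes, 1 per genotype, each with its input, were used through the authors' peak lists. The authors trimmed reads with Trimmomatic 0.38 (per the labels), aligned them to mm10 with Bowtie2, filtered by mapping quality, removed duplicates with Picard, assigned reads to parental genomes with SNPsplit, called peaks with SICER against input, kept peaks over 1000 bp (as stated; the shortest listed span 999 bp) with fold over 5, and annotated them with ChIPseeker. The deposited value of each peak is the authors' ratio (fold) of H3K27me2 over input reads. Only reads that cover a strain variant could be assigned, so regions with few variants can lack peaks. Replicates did not exist, and read totals per parental genome were not used here. Lists were given to genotypes by their peak numbers as in the paper's Reporting Summary, and the deposited coverage table was not used.

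Entrez identifiers were matched to RefSeq genes (GRCm38.p6); 11459 of 11472 matched (99.9%). Gene length is the annotated span. Shares carry 95% Wilson intervals, and overlap means at least 1 bp. Values were computed in Python 3.11.15 (pandas 2.3.3, numpy 2.4.6, scipy 1.17.1) and drawn with matplotlib 3.10.9; overlap counting was tested on simulated data. With 1 library per genotype no p-value was computed. The members and lists were chosen with earlier results of these data known. Peaks named in full were those within 3 kb of a member's start site, the largest fold and the longest in each list, maternal pairs overlapping between genotypes, those of the 3 members with most peaks in each paternal list, and those of a member called in both parental genomes of both genotypes; other named peaks and the GABA-A clusters were chosen after their values were seen. Some genes and their values are not reported here, though they count in the totals. Sequences are from the genome of the same build, and 28 of the 43 members were in the RefSeq promoter table. Alternatives were fold over 10, length over 2000 bp, lists of equal size, autosomes only, gene body overlap in place of assignment and reciprocal overlap of 50%. Lists of equal size kept the 5744 peaks of highest fold in each list.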

Additional observations from a re-analysis of the deposited data

Results flagged for a closer look

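At Grm4 and Grik4 the number of assigned peaks moved in opposite directions in the parental genomes between Ezh2m+/p+ and Ezh2m-/p+ zygotes. At Grm4, maternal peaks numbered 1 and 0 and paternal peaks 4 and 10, so that the change in the paternal genome exceeded that in the maternal by 7. The opposite movement was also present by overlap of the gene body (maternal 1 and 0, paternal 4 and 8), but not in the gene with 500 kb on either side, where maternal peaks numbered 1 and 3 and paternal peaks 26 and 34. At Grik4, maternal peaks numbered 1 and 3 and paternal peaks 1 and 0, a difference of -3. This rests on the assignment to the nearest start site: by overlap of the gene body Grik4 had 1 paternal peak in each genotype, and the gene with 500 kb on either side held 18 and 28. With 1 library per genotype, neither difference was tested.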

How the results depend on the processing

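Of 96 values recomputed under the alternatives, 71 stayed within their counting error or within 1.5 times, 23 moved and 2 reversed. The reversed ones were the paternal minus maternal number of called members in Ezh2m+/p+ zygotes (2 as reported), which was -7 with peaks over 2000 bp and -5 with equal lists of 5744 peaks; at fold over 10 it was 7 and by gene body overlap 6. In Ezh2m-/p+ zygotes the same number (4 as reported) was 5, 1, 2 and 6 at fold over 10, length over 2000 bp, equal size and gene body overlap. At fold over 10, called members in the Ezh2m+/p+ maternal list fell to 6, called partner genes there to 11, members called in the maternal genome of both genotypes to 2, and the maternal share shared in position to 0%. With peaks over 2000 bp, called members were 3 in the Ezh2m+/p+ paternal and 9 in the Ezh2m-/p+ paternal list, the members' share of peaks was 0.0764% and 0.170%, the share of called members over 200 kb in the Ezh2m+/p+ paternal list was 9.52%, partner genes were 12 in that list and 15 in the Ezh2m-/p+ maternal list, and 2 members were called in the paternal genome of both genotypes. With equal lists, the Ezh2m+/p+ paternal list called 6 members and 12 partner genes, the Ezh2m-/p+ paternal list 16 partner genes, and 5 members were paternal in both genotypes. With a reciprocal overlap of 50%, 22.9% of Ezh2m+/p+ paternal member peaks were shared. By construction the fold, length and equal-size settings leave fewer peaks; the cause of the other moves was not tested. No paired analysis was possible because each genotype has 1 library. Leaving out a replicate was not possible either. The unknown read depth of each parental genome limits what absence of a peak means.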
